A study of Capra hircus with 36 samples.

Results

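The miR-148 and miR-152 family is a small set of microRNAs (miRNAs) whose main mature strands share the same seed. The seed is the stretch near the 5′ end with which a miRNA pairs with messenger RNAs. Its members were found by name: every listed miRNA called chi-miR-148a, chi-miR-148b or chi-miR-152, either arm, with or without the prefix conserve-. This gave 6 of 1391 listed mature miRNAs, the 3p and 5p arms of chi-miR-148a, chi-miR-148b and conserve-chi-miR-148a, and 0 were named miR-152. An arm is the side of the precursor hairpin from which a mature strand is cut. In the study's naming, plain chi- names match annotated goat miRNAs, and conserve- marks a sequence that matches the miRNA of another mammal. miRNAs without a family name were not searched.

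In mammals, miR-148a is abundant in liver, where it has been tied to hepatocyte maturation and to lipoprotein metabolism through the LDL receptor. The family is also known to act on messenger RNAs of DNA methyltransferases, the enzymes that place methyl groups on DNA. The host of miR-148b is COPZ1 and that of miR-152 is COPZ2, a pair of related genes for a subunit of the COPI vesicle coat. In the RefSeq annotation of goat assembly ARS1.2, MIR148B lay within COPZ1, followed by the protein-coding genes NFE2, HNRNPA1 and CBX5. MIR148A lay within the span of LOC108635844 and was followed by NFE2L3, HNRNPA2B1 and CBX3. COPZ2 lay beside NFE2L1 and CBX1, so relatives of NFE2 and of CBX genes lay near each of these places.

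Small RNA was sequenced from liver, heart, spleen, lung, kidney and longissimus muscle of 6 adult female goats of about 3 years. The high-altitude group was 3 Tibetan goats living at 3000 m, and the low-altitude group was 3 goats of a low-altitude population living at 600 m. Each goat gave 1 library per tissue, 36 in all, so that every tissue had 3 libraries from each altitude. By the paper's account, the groups also differed in breed, body weight and form of rearing. The low-altitude goats were heavier and home-reared, and the Tibetan goats were kept by stocking or nomadism. Population, with these traits, and altitude cannot be told apart in this design. All libraries are of whole tissue, in which more cells of a type and more RNA per cell cannot be told apart. Levels are given as RPM, the count of a miRNA as a share of the library's sum over all miRNAs, scaled to a sum of 1e6. These sums ran from 7108635 to 14407748 counts, at which 3 counts equal 0.208 to 0.422 RPM. All 6 members had counts in all 36 libraries, the lowest being 24, for conserve-chi-miR-148a-5p in a muscle library, where counting error adds to the spread between goats. Some libraries stood apart from their group over all miRNAs, with a chi-square per degree of freedom against both other replicates at least 2 times that between these. Low-altitude replicate 3 did so in heart (3914 and 4021 with the others, which had 612 between them), kidney (6207 and 3492 against 1636) and muscle (4483 and 4657 against 716). High-altitude replicate 2 did so in heart (2565 and 3163 against 892), kidney (3564 and 4211 against 325), lung (5089 and 6505 against 1718) and muscle (4549 and 6653 against 1472), and high-altitude replicate 1 in spleen (3037 and 3241 against 1274).

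The liver marker miR-122-5p averaged 50587 ± 65316 RPM in liver (SD, n = 6) and at most 81.3 RPM in any other tissue. The summed marker lists for heart, skeletal muscle, lung, kidney and spleen also had their highest mean in the tissue they stand for. Their means there, in RPM over 6 libraries, were 20309.6 ± 3134 (SD) for the 3 heart miRNAs, 248645 ± 37310.5 (SD) for the 3 muscle miRNAs and 5871 ± 3255 (SD) for the 2 of 3 lung miRNAs that were listed. They were 318115 ± 102162 (SD) for the 4 of 5 listed kidney miRNAs and 43233 ± 18548 (SD) for the 5 spleen miRNAs. The kidney sum was nearly all miR-10b-5p, at 314594 RPM, and single members went against their list: miR-194-5p averaged 16949 RPM in liver and 2568 in kidney, miR-196a-5p 265 in muscle and 149 in kidney, and miR-223-3p of the spleen list 394 in lung and 371 in spleen. In liver, miR-122-5p itself ranged from 6118 RPM in high-altitude replicate 2 to 179917 RPM in high-altitude replicate 3.

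In these goats the family was most abundant in liver, through 1 of its members. chi-miR-148a-3p, the main strand of miR-148a, averaged 99723 ± 44051 RPM in liver (SD, n = 6), and 1 to 6 was its rank among all miRNAs of the liver libraries. Liver was its highest tissue in 6 of 6 goats, with a mean 5.64 times that of lung, the next tissue, and 28.6 times that of muscle, the lowest. Lung averaged 17666 ± 4757, spleen 14893 ± 8746 and heart 10346 ± 2737 RPM (SD, n = 6 each). Kidney averaged 6405 ± 2401 and muscle 3487 ± 1009 RPM (SD, n = 6 each). The lowest liver library, at 47174 RPM, stood above the highest library of any other tissue, a spleen library at 29508 RPM.

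Its libraries from the populations did not overlap in liver. There, chi-miR-148a-3p had 138058, 146582 and 131152 RPM in the high-altitude goats and 78527, 47174 and 56843 RPM in the low-altitude goats. All 3 high-altitude livers were above all 3 low-altitude livers, and in high-altitude replicate 2 it was the most abundant miRNA of the library. In spleen, its levels were 19449, 29508 and 15150.5 RPM at high altitude and 12263, 6535 and 6453 RPM at low altitude. The spleen groups were again apart, with 12263 RPM in low-altitude replicate 1 nearest to the high-altitude group.

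In heart, chi-miR-148a-3p had 14200.4, 12070.1 and 11551 RPM at high altitude against 6729, 8965 and 8559.6 RPM at low altitude. In muscle it had 4939.5, 3218 and 4477 RPM against 2943, 2284 and 3061 RPM. The groups were apart in both tissues, in muscle by less than the spread within either group. In kidney it had 6316, 10057 and 6540.1 RPM at high altitude and 2476, 6582 and 6456 RPM at low altitude. The kidney groups overlapped, with low-altitude replicate 1 far below the other 5 libraries. In lung it had 9438, 23677 and 20659 RPM at high altitude and 17491, 17114 and 17617 RPM at low altitude. The lung groups overlapped, the 3 low-altitude lungs lying close together between high-altitude replicate 1 and the other high-altitude libraries.

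**Figure D1:**
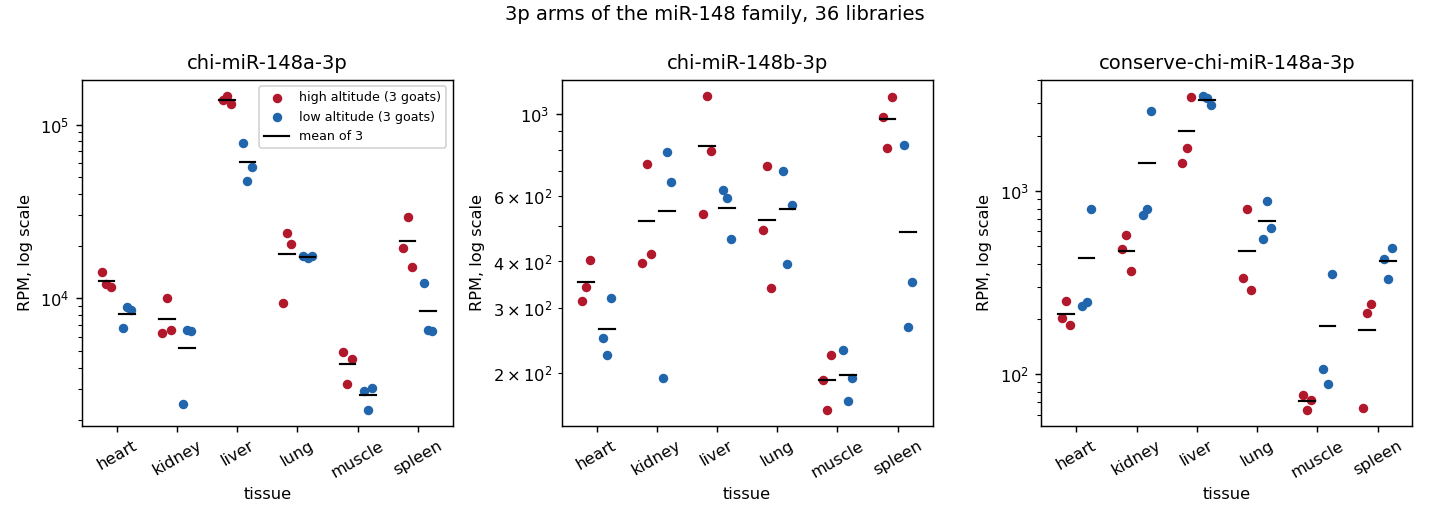
RPM on a log scale (vertical axis, a scale of its own in each panel) by tissue (horizontal axis) for the 3p arms of the 3 precursors. Each point is 1 library, red for high and blue for low altitude, and each black line is the mean of 3 libraries. chi-miR-148a-3p stands highest in liver, at 47174 to 146582 RPM, and the conserve- entry lies at 1417 to 3304 RPM there.

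chi-miR-148b-3p, the main strand of miR-148b, was much lower and flatter. Its means were 724 ± 341 RPM in spleen, 688 ± 240.0 in liver and 536 ± 158 in lung (SD, n = 6 each). They were 531 ± 232 RPM in kidney, 308 ± 64.5 in heart and 194 ± 28.6 in muscle (SD, n = 6 each). Its highest tissue varied between goats, being spleen in 3, kidney in 2 and liver in 1. In spleen it had 979, 811 and 1112 RPM at high altitude and 822, 267 and 353 RPM at low altitude. In liver it had 537, 1121 and 797 RPM against 624, 593 and 459 RPM. The altitude groups of chi-miR-148b-3p overlapped in these tissues and in the other 4, where libraries ranged from 159 to 792 RPM.

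conserve-chi-miR-148a-3p, the conserve- entry of the main strand, shared the liver peak of its namesake but not the order of the other tissues. Its means were 2635 ± 846 RPM in liver, 948 ± 889.8 in kidney and 577 ± 238 in lung (SD, n = 6 each). They were 320.1 ± 236 RPM in heart, 294 ± 154 in spleen and 127 ± 111 in muscle (SD, n = 6 each). The kidney mean includes low-altitude replicate 3 at 2734 RPM, and the medians were closer, at 655 RPM in kidney and 585 RPM in lung. Liver was the highest tissue of the entry in 6 of 6 goats. Its mature sequence is not in the files, so how it differs from chi-miR-148a-3p is not known here. Reads of near-identical family members may have been shared between entries in ways that depend on the authors' counting, which makes the split among the miR-148a and miR-148b entries uncertain.

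Its mean was lower at high altitude, where that of chi-miR-148a-3p was higher. In spleen, conserve-chi-miR-148a-3p had 65.6, 216 and 240.1 RPM at high altitude and 425, 330.2 and 489 RPM at low altitude. In kidney it had 480.2, 572 and 364 RPM against 739, 798 and 2734 RPM. In muscle it had 77.0, 63.8 and 72.5 RPM against 107, 88.7 and 352 RPM. In these 3 tissues every high-altitude library was below every low-altitude one, and in kidney and muscle low-altitude replicate 3 was far above the rest. In liver it had 1417, 1705 and 3255 RPM at high altitude and 3304, 3193 and 2937 RPM at low altitude. High-altitude replicate 3 made the liver groups overlap. The heart groups, at 185 to 250.4 and 235 to 799.8 RPM, and the lung groups, at 286 to 793 and 543 to 876 RPM, overlapped too, though the high-altitude mean was the lower in 6 of 6 tissues.

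The 5p arms, the minor strands, were far lower. chi-miR-148a-5p ranged from 9.92 to 385 RPM over the 36 libraries, chi-miR-148b-5p from 16.5 to 102 RPM and conserve-chi-miR-148a-5p from 1.77 to 62.4 RPM. In mean RPM their tissue orders were those of their 3p partners. The arms of chi-miR-148a and of chi-miR-148b differed in order on TMM-normalized counts and on a total without the most abundant miRNA. With medians over libraries, the arms of chi-miR-148b and of the conserve- entry differed. By goat, chi-miR-148a-5p was highest in lung in 2 of 6 and conserve-chi-miR-148a-5p in kidney in 2 of 6. The 3p arm held 99.6 ± 0.145% of the counts of both arms for chi-miR-148a, 90.3 ± 3.55% for chi-miR-148b and 96.5 ± 2.72% for the conserve- entry (SD, n = 36 each). The lowest 3p shares of single libraries were 99.3%, 78.3% and 83.5%, so in no library did the 5p arm become the main strand. Of all family counts, chi-miR-148a-3p made up 90.5 ± 6.84% on average (SD, n = 36), from 64.8% in 1 kidney library to 98.3% in 1 liver library. conserve-chi-miR-148a-3p took 4.72 ± 5.44% and chi-miR-148b-3p 3.86 ± 2.19% (SD, n = 36 each). The kidney differed most in make-up, with 79.8 ± 9.77% from chi-miR-148a-3p and 12.5 ± 9.58% from the conserve- 3p arm (SD, n = 6 each).

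The tissue specificity index runs from 0, equal means in all tissues, to 1, a single tissue. It was 0.894 for chi-miR-148a-3p, above the 0.85 that marks a tissue-specific miRNA, and 0.828 for conserve-chi-miR-148a-3p. It was 0.377 for chi-miR-148b-3p and 0.471 for chi-miR-148b-5p, against a median of 0.720 over the 537 miRNAs with a mean of at least 1 RPM, of which 26.4% were above 0.85. For chi-miR-148b-3p the index ranged from 0.190 to 0.513 with other scales or averages. For chi-miR-148a-3p it ranged from 0.874 to 0.902, and conserve-chi-miR-148a-3p passed 0.85 when medians over libraries replaced means, at 0.879. Within single goats, whose 6 libraries give 1 value per tissue, the index of chi-miR-148a-3p was 0.824 to 0.921, so at least 1 goat was under 0.85, and that of chi-miR-148b-3p was 0.421 to 0.608, above its value of 0.377 from the means over goats.

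Tissues were compared with edgeR, each against the mean of the other 5 over both altitudes, in 1 fit to all 36 libraries, and a member was called at an adjusted p under 0.05. Liver was the tissue with the strongest calls: 4 of 6 members were higher there, against 10.9% of all miRNAs. The log2 fold change was 2.97 ± 0.18 (SE, adjusted p = 1.13e-13) for chi-miR-148a-3p and 1.91 ± 0.27 (SE, adjusted p = 4.00e-06) for chi-miR-148a-5p. It was 2.58 ± 0.23 (SE, adjusted p = 3.97e-10) for conserve-chi-miR-148a-3p and 1.56 ± 0.27 (SE, adjusted p = 6.55e-05) for conserve-chi-miR-148a-5p. Both arms of each miR-148a entry were thus raised in liver, and neither arm of miR-148b passed. The shares of all miRNAs given here and for the other tissues are over 1391 miRNAs, of which 537 had a mean of at least 1 RPM. All 6 members had counts in all 36 libraries, and shares among the 537 are not given.

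Kidney parted the miR-148a entries. There, 2 of 6 members were higher, against 11.7% of all miRNAs, and 2 of 6 were lower, against 4.39%. The higher ones were conserve-chi-miR-148a-3p, at a log2 fold change of 0.99 ± 0.25 (SE), and conserve-chi-miR-148a-5p, at 1.28 ± 0.27 (SE). The lower ones were chi-miR-148a-3p, at -1.26 ± 0.24 (SE), and chi-miR-148a-5p, at -1.35 ± 0.34 (SE). The call of chi-miR-148a-5p was lost without low-altitude replicate 1, at -1.07, and without low-altitude replicate 2, at -1.13.

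Muscle had 3 of 6 members lower, against 6.04% of all miRNAs. They were chi-miR-148a-3p at a log2 fold change of -1.32 ± 0.24 (SE), conserve-chi-miR-148a-3p at -1.54 ± 0.30 (SE) and conserve-chi-miR-148a-5p at -1.65 ± 0.34 (SE). DESeq2 called 5 of 6 lower in muscle, adding chi-miR-148a-5p at -0.74 (adjusted p = 0.0315) and chi-miR-148b-3p at -0.49 (adjusted p = 0.0213), which in edgeR stood at -0.64 and -0.40 (adjusted p = 0.236 and 0.307). Spleen had 2 of 6 lower, against 6.47%, namely conserve-chi-miR-148a-3p at -1.46 ± 0.30 (SE) and conserve-chi-miR-148a-5p at -1.03 ± 0.32 (SE). The spleen call of the 5p arm was lost on library size alone, at -0.54, and without high-altitude replicate 3 (-0.85) or any 1 of low-altitude replicates 1 (-1.06), 2 (-1.13) and 3 (-1.01). chi-miR-148b-5p in spleen stood at 0.57 ± 0.22 (SE), with an adjusted p of 0.0619 in this fit, 0.0457 with goat as a block and 0.00134 with DESeq2. Heart had 0 of 6 members called with edgeR, against 13.3% of all miRNAs, with 0 at an unadjusted p under 0.05 and 0 with DESeq2. Lung had 0 of 6 with edgeR, against 16.5%, with 0 at an unadjusted p under 0.05 and 1 with DESeq2, chi-miR-148a-5p.

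Scaling matters to these contrasts. Without TMM normalization, on library size only, the median log2 fold change of the 537 miRNAs moved by -0.95 in muscle, 0.54 in lung, -0.50 in heart, 0.42 in liver and 0.40 in spleen. With RLE factors it moved by 0.19 in lung and -0.15 in kidney. Relative to the median of these 537, chi-miR-148a-3p stood at 2.94 in liver with TMM and 2.95 on library size only, and in muscle at -1.25 and -1.29.

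Between neighbours in its order of tissues, chi-miR-148a-3p passed in 2 of 5 steps. Liver was above lung by a log2 fold change of 2.44 ± 0.30 (SE, adjusted p = 3.21e-07), where 9.85% of all miRNAs were called. Heart was above kidney by 1.07 ± 0.28 (SE, adjusted p = 0.00841), where 14.4% were called, but by 0.68 on library size only (adjusted p = 0.0916). Lung and spleen (10.3% of all miRNAs called), spleen and heart (13.7%), and kidney and muscle (13.7%) did not pass. The fitted spleen to heart value was -0.38, opposite to the order of RPM, and 0.41 on library size only. Kidney stood above muscle by 0.05 with TMM and by 0.88 on library size only, where it passed (adjusted p = 0.022). Of all 15 pairs of tissues, chi-miR-148a-3p differed in 9.

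conserve-chi-miR-148a-3p also passed in 2 of 5 steps, and differed in 10 of 15 pairs. Liver was above kidney by 1.33 ± 0.35 (SE, adjusted p = 0.0104), where 11.1% of all miRNAs were called. Kidney was above lung by 1.05 ± 0.35 (SE, adjusted p = 0.039), where 14.7% were called, and by 0.53 on library size only, where it did not pass (adjusted p = 0.626). Lung and heart (11.7%), heart and spleen (13.7%), and spleen and muscle (17.3%) did not pass, the last of these passing on library size only, at 1.24. For chi-miR-148b-3p, 0 of 15 pairs passed with edgeR, 1 at an unadjusted p under 0.05 and 2 with DESeq2. Its neighbours were spleen and liver (10.7% of all miRNAs called), liver and lung, lung and kidney, kidney and heart, and heart and muscle (9.63%). None of these steps passed in the edgeR fit. In that order, the fitted values were -0.03 ± 0.28, 0.43 ± 0.28, -0.41 ± 0.28, 0.39 ± 0.28 and 0.18 ± 0.28 (SE). Those of spleen and liver and of lung and kidney were opposite to the order of RPM.

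Altitude was compared within each tissue with edgeR, and a call needed a log2 fold change, high over low, of at least 1.5 in size with an adjusted p under 0.05. In each of the 6 tissues 0 of 6 members were called. The share of all miRNAs called was 0% for liver, 0% for heart, 0% for lung, 0% for kidney, 0.144% for spleen and 0.0719% for muscle. Of the 36 pairs of member and tissue, 4 had an unadjusted p under 0.05 in edgeR, or 11.1%, against 5.32% of the tests over all miRNAs and 8.19% of those on miRNAs with counts in the tissue. After edgeR's filter for sparse miRNAs, filterByExpr, 6 of the 36 had an unadjusted p under 0.05, against 15.1% of the tests kept. The family thus stood little apart from other well-counted miRNAs in that setting. The edgeR exact test called 0 of 36, against 0.359%, with 0 at an unadjusted p under 0.05. DESeq2 called 0 of 36, against 6.67% of the tests to which it gave an adjusted p. It had 11 of 36, or 30.6%, at an unadjusted p under 0.05, against 13.9% of the tests to which it gave a p. DESeq2 with no minimum fold, a rule added after seeing the data, called 4 of 36, or 11.1%, against 8.64% of the tests given an adjusted p, a share close to that of the family.

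These 4 were 3 of chi-miR-148a-3p and 1 of the conserve- entry. In liver, chi-miR-148a-3p had a DESeq2 log2 fold change of 1.37 ± 0.33 (SE, adjusted p = 0.00146), and in spleen 1.37 ± 0.41 (SE, adjusted p = 0.0124). In kidney it had 0.82 ± 0.26 (SE, adjusted p = 0.0329), though its kidney libraries overlapped in RPM. conserve-chi-miR-148a-3p had -1.36 ± 0.47 in spleen (SE, adjusted p = 0.046). In edgeR the same comparisons gave 1.29 ± 0.37, 1.30 ± 0.40, 0.72 ± 0.31 and -1.37 ± 0.49 (SE), with adjusted p from 0.7 to 0.959.

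**Figure D2:**
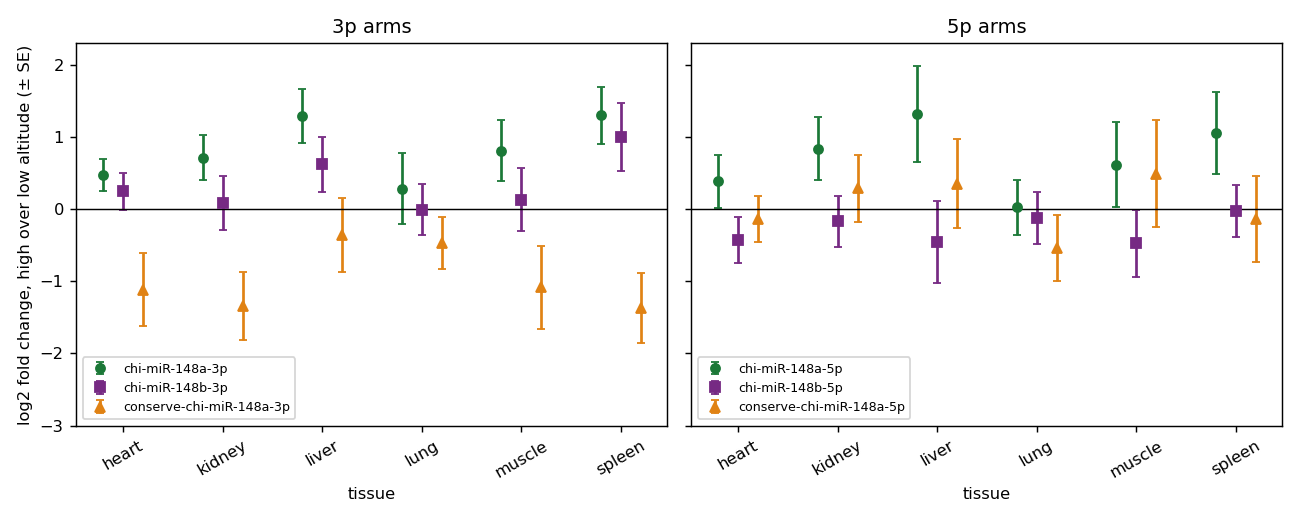
The log2 fold change, high over low altitude, from the edgeR fit within each tissue (vertical axis) by tissue (horizontal axis), 3p arms on the left and 5p arms on the right. Points are fitted values of 3 against 3 libraries and bars are ± 1 SE. chi-miR-148a-3p lies above 0 in 6 tissues, from 0.29 to 1.30, and conserve-chi-miR-148a-3p below 0 in 6, from -1.37 to -0.36, and no point met the threshold for a call.

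The signs of the edgeR fold changes ran by entry. chi-miR-148a-3p was positive in 6 of 6 tissues, from 0.29 in lung to 1.30 in spleen, though lung turned to -0.13 without high-altitude replicate 3. chi-miR-148a-5p was positive in 6 of 6, from 0.03 to 1.32, and in lung it turned negative on library size only, at -0.19. conserve-chi-miR-148a-3p was negative in 6 of 6, from -1.37 to -0.36, under TMM, RLE and library size alike. Without low-altitude replicate 3 it moved from -1.12 to -0.50 in heart, from -1.34 to -0.98 in kidney and from -1.09 to -0.45 in muscle, and without high-altitude replicate 1 from -1.37 to -1.02 in spleen, where chi-miR-148a-3p moved from 1.30 to 1.25. chi-miR-148b-3p was positive in 5 of 6, from -0.01 in lung to 1.0 in spleen, but on library size only it was negative in kidney (-0.09) and muscle (-0.05), and with RLE factors positive in lung (0.06). chi-miR-148b-5p was negative in 6 of 6, from -0.47 to -0.02, and in spleen turned positive with RLE factors (0.01) and library size only (0.05). conserve-chi-miR-148a-5p was positive in 3 and negative in 3, from -0.54 to 0.49, and in heart turned to 0.04 on library size only. Against these, library size only moved the median altitude value of all miRNAs by 0.16 in heart and -0.14 in muscle, and by less than 0.1 elsewhere.

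Separation of the 3 high from the 3 low libraries was counted beside all miRNAs with a mean of at least 1 RPM in the tissue. In heart, 1 of 6 members was above, chi-miR-148a-3p, against 19.9% of miRNAs, and 0 were below, against 9.95%. In kidney, 1 was above, chi-miR-148a-5p, against 4.07%, and 1 below, conserve-chi-miR-148a-3p, against 8.35%. In liver, 1 was above, chi-miR-148a-3p, against 4.67%, and 0 were below, against 14%. In lung, 0 were above, against 5.03%, and 2 below, chi-miR-148a-5p and conserve-chi-miR-148a-5p, against 13.7%. In muscle, 1 was above, chi-miR-148a-3p, against 8.9%, and 2 below, chi-miR-148b-5p and conserve-chi-miR-148a-3p, against 14.1%. In spleen, 1 was above, chi-miR-148a-3p, against 9.18%, and 1 below, conserve-chi-miR-148a-3p, against 12.7%. chi-miR-148a-3p was thus above in 4 of 6 tissues and the conserve- 3p arm below in 3 of 6. With 6 members, 1 member apart is a share near the background for those above in heart and those below in spleen, so these counts say little about the family.

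Other markers moved with altitude in the same tissues, and their part in the family's differences was not tested. In liver, the 2 of 3 listed erythroid miRNAs, of which miR-486-5p was the more abundant over all libraries, summed to 315, 6323 and 4283 RPM at high and 9055, 9899.9 and 8602 RPM at low altitude. In 1 high-altitude liver, 1 of these markers was at 0, and in high-altitude replicate 1 miR-486-5p was 2.03 of the 315 RPM. By tissue, this list had its highest means in muscle (22885 RPM) and heart (22430 RPM), against 6413 RPM in liver and 4886 RPM in spleen. In spleen, the smooth muscle pair miR-143-3p and miR-145-5p, nearly all miR-143-3p, summed to 356084, 400364 and 367739 RPM at high and 409393, 563335 and 447855 RPM at low altitude. In heart the same pair summed to 180756, 115865 and 189297 RPM against 68517, 75539.8 and 58915 RPM, and in muscle to 55241, 23012 and 51074 RPM against 17366, 21060.1 and 22234 RPM. In lung it summed to 149442 to 253381 RPM at high and 264381 to 301529 RPM at low altitude. The sum of this pair, which follows miR-143-3p, was therefore higher at high altitude in heart and muscle and lower in spleen and lung. miR-145-5p went the other way in heart, with 15545 counts over the high-altitude libraries and 40910 over the low-altitude ones. It did so in muscle too (8462 and 12665), and was lower at high altitude in spleen and lung, like the sum. chi-miR-148a-3p was higher in heart, muscle and spleen and overlapped in lung. The sum of the endothelial pair miR-126-3p and miR-126-5p overlapped between altitudes in all 6 tissues, at 16319.9 to 23152 RPM in liver. Its arms differed, however. In heart, miR-126-5p had 202600 counts over the high-altitude libraries and 48710 over the low-altitude ones, and miR-126-3p 269510 and 343413. In kidney, liver, lung and muscle too, miR-126-5p was higher and miR-126-3p lower at high altitude, while in spleen both were lower. The summed leukocyte miRNAs of the spleen list overlapped in spleen and were apart in heart, at 2002 to 3509 RPM at high and 1531 to 1924 RPM at low altitude. In heart, miR-142-5p alone overlapped, at 1516 RPM in high-altitude and 1580 RPM in low-altitude replicate 2. Over the heart libraries, miR-142-5p, miR-155-5p and miR-223-3p had more counts at high altitude. miR-142-3p had fewer (1807 and 3318), and miR-150-5p nearly as many (8622 and 8815). Also apart, high against low, were the heart list in liver (187 to 287 and 17.8 to 141 RPM), the lung list in heart (5.42 to 15.4 and 1.30 to 4.05 RPM) and spleen (27.1 to 36.4 and 4.03 to 11.1 RPM), and the skeletal muscle list in muscle (182812 to 246085 and 258292 to 288443 RPM). In kidney, 3 lists were higher at high altitude, skeletal muscle (664 to 1056 and 101 to 303 RPM), heart (62.4 to 170.0 and 4.05 to 31.0 RPM) and lung (10.5 to 35.5 and 5.24 to 7.40 RPM). In lung, the heart list (20.1 to 105 and 5.06 to 17.9 RPM) and the liver marker (19.6 to 129 and 5.69 to 12.7 RPM) were higher at high altitude.

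To compare goats over all tissues, each goat was given the mean of log2(RPM + 1) over its 6 tissues, and 3 goats were compared with 3 by an exact two-sided permutation test, whose smallest possible p is 0.1. For chi-miR-148a-3p the goat means were 13.87 to 14.17 at high and 13.21 to 13.31 at low altitude, a difference of 0.74, or 1.67-fold (exact p = 0.1). For conserve-chi-miR-148a-3p they were 7.96 to 8.55 and 8.95 to 9.88, a difference of -0.99 (exact p = 0.1). Without low-altitude replicate 3 these differences were 0.76 and -0.68, without high-altitude replicate 2 they were 0.64 and -1.12, and without high-altitude replicate 1 they were 0.80 and -0.83. For chi-miR-148b-3p they were 8.74 to 9.09 and 8.46 to 8.64, a difference of 0.33 (exact p = 0.1). Of the 6 members, 3 had all high-altitude goats above, against 9.5% of miRNAs with a mean of at least 1 RPM, and 1 had them all below, against 15.1%. The third member above was chi-miR-148a-5p, at a difference of 0.60 (exact p = 0.1). For chi-miR-148b-5p the difference was -0.34 (exact p = 0.3) and for conserve-chi-miR-148a-5p -0.02 (exact p = 0.9). The family sum differed by 0.64, with goat means of 13.97 to 14.27 at high and 13.37 to 13.55 at low altitude (exact p = 0.1).

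Whether the altitude difference itself varied between tissues was tested in 1 edgeR fit over the 12 groups. The interaction called 0 of 6 members, against 0.216% of all miRNAs, and 0 had an unadjusted p under 0.05. The larger values of chi-miR-148a-3p in liver and spleen were therefore not shown to differ from those in the other 4 tissues.

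The balance between the miR-148a entries, a ratio of counts within a library that no scaling of the library alters, was looked at after the opposite signs had been seen. In liver, chi-miR-148a-3p had 97.4, 86.0 and 40.3 times the counts of conserve-chi-miR-148a-3p at high altitude, and 23.8, 14.8 and 19.4 times at low altitude. In spleen the ratio was 296, 137 and 63.1 at high and 28.9, 19.8 and 13.2 at low altitude. In kidney it was 13.2, 17.6 and 18 against 3.35, 8.25 and 2.36. The high-altitude ratios were above all low-altitude ones in these 3 tissues, and within each altitude kidney had the lowest ratios of the 6 tissues. Heart, at 48.2 to 70.2 against 10.7 to 36.1, and muscle, at 50.4 to 64.2 against 8.68 to 27.5, were apart in the same direction. The lung groups overlapped, at 28.1 to 72.2 and 19.5 to 32.2.

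Over the 6 tissues of a goat, the mean log2 ratio differed by 1.73 between the altitudes, or 3.31-fold. This is a description without a test, since the pair was chosen for its opposite signs, and other pairs of miRNAs were not looked at. Leaving out each goat in turn gave 1.45 to 1.88, the lowest without low-altitude replicate 3, whose conserve- counts were high in several tissues. The ratio of chi-miR-148a-3p to chi-miR-148b-3p differed less, by 0.40 or 1.32-fold, and its groups were apart in 3 of 6 tissues, kidney, liver and muscle. In liver it was 257, 131 and 165 at high and 126, 79.5 and 124 at low altitude. These ratios rest on the authors' split of reads between entries, and an unequal change of the entries is all that a ratio shows.

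**Figure D3:**
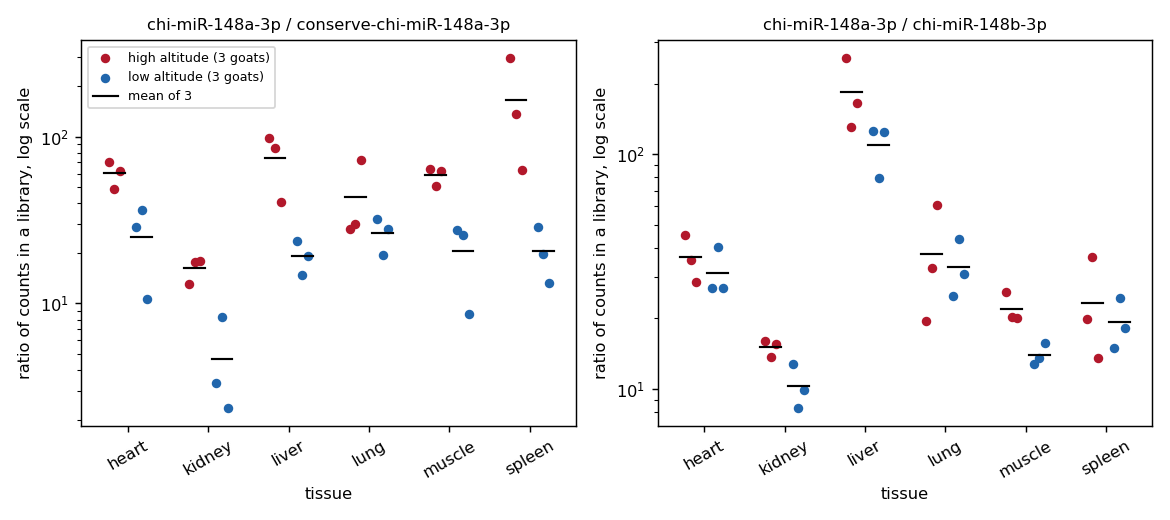
The ratio of counts within a library on a log scale (vertical axis) by tissue (horizontal axis), for chi-miR-148a-3p over conserve-chi-miR-148a-3p on the left and over chi-miR-148b-3p on the right. Each point is 1 library, red for high and blue for low altitude, and each line is the mean of 3. On the left the high-altitude libraries stand above the low-altitude ones in 5 of 6 tissues, in spleen with means of 165 and 20.6, and on the right in 3 of 6.

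Across the 36 libraries, which share goats and tissues, the members' levels moved together to different degrees (Pearson r of log2(RPM + 1), n = 36, a description). chi-miR-148a-3p had r = 0.927 with its own 5p arm, 0.679 with chi-miR-148b-3p and 0.634 with conserve-chi-miR-148a-3p. After the mean of each tissue was taken away, these became 0.762, 0.682 and -0.311.

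Among 307 miRNAs with a mean of at least 10 RPM, the 5 whose levels were most like chi-miR-148a-3p (Pearson r, n = 36) were chi-miR-148a-5p at 0.927, chi-miR-122-3p at 0.754, chi-miR-28-5p at 0.745, conserve-chi-miR-3100-5p at 0.743 and conserve-chi-miR-9142-5p at 0.725. All 5 were highest in liver. Their Spearman rho were 0.917, 0.279, 0.684, 0.432 and 0.340, and 1 of the 5, its own 5p arm, was among the top 5 by that measure. The 5 most like chi-miR-148b-3p (Pearson r, n = 36) were chi-miR-28-3p at 0.85, chi-miR-103-3p at 0.831, chi-miR-93-5p at 0.819, chi-miR-98-3p at 0.801 and chi-miR-26b-5p at 0.791. Their Spearman rho were 0.818, 0.825, 0.796, 0.795 and 0.770, and 4 of the 5 were among the top 5 by that measure. After the mean of each tissue was taken away, r was 0.785, 0.505, 0.664, 0.617 and 0.642 for these 5, and 0.762, -0.033, 0.306, 0.352 and 0.0071 for the 5 most like chi-miR-148a-3p.

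Other miRNAs that share the family's known roles were listed for comparison. Of all 1391 miRNAs, 10.9% were higher and 5.03% lower in liver than in the other 5 tissues. Of 7 miRNAs reported to act on DNA methyltransferases, all listed, 2 were higher there, miR-29a-3p (log2 fold change 0.92) and miR-101-3p (1.67), and 2 were lower, miR-29c-3p (-1.97) and miR-342-3p (-1.63). Of the 7, miR-185-5p, also 1 of the lipoprotein miRNAs, had counts in heart only and was left out of the medians. The median liver value of the other 6 was -0.29, against 0.03 for the 537 miRNAs with a mean of at least 1 RPM. Of 13 miRNAs reported to act in lipoprotein and cholesterol metabolism, 11 were listed. In liver, 3 of these were higher, miR-122-5p (9.81), miR-144-3p (4.46) and miR-33a-5p (1.43), and 1 was lower, miR-128-3p (-1.44). The median of the 10 without miR-185-5p was 0.18, and -0.34 for the 8 with counts in all 12 groups, without miR-96-5p and miR-144-3p, so its sign depended on the miRNAs used. In spleen, where 13% of all miRNAs were higher and 6.47% lower, 6 of the 11 lipoprotein miRNAs were higher and 2 lower, with a median of 1.08 for the same 10 and for the same 8, against -0.004 for the 537. Of the 7 that act on DNA methyltransferases, 2 were higher and 2 lower in spleen, with a median of 0.44 without miR-185-5p. chi-miR-148a-3p, at 2.97 in liver, was above each of the listed miRNAs there but miR-122-5p and miR-144-3p, which also serve as the liver marker and as an erythroid marker. miR-144-3p had 0 counts in all lung libraries, so its fitted values depend on how zeros were treated.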

How the data were processed

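Small RNA of 36 goat libraries was sequenced on an Illumina instrument. The values that the authors deposited are raw counts, whole numbers of reads assigned to each mature miRNA, and every listed miRNA reached 3 counts in some library. No further filter was used. edgeR 4.0.16 (TMM, quasi-likelihood test, Benjamini-Hochberg over 1391 miRNAs) was run in R 4.3.3 within each tissue for altitude, and over 12 groups for tissues and the interaction. DESeq2 1.42.0, RLE factors, library size only, the exact test, filterByExpr, summed arms, replicate number or goat as a block, and leaving out each library or goat were the alternatives, with those added after seeing the data named as such. Python 3.11.15, NumPy 2.4.6 and pandas 2.3.3 did the rest. The fits were tested on simulated data.

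The miRNAs named were the 6 family members, the 5 most correlated with chi-miR-148a-3p and with chi-miR-148b-3p, and the listed miRNAs of the DNA methyltransferase, lipoprotein and marker lists. Family members and lists were chosen with earlier results of these data known. Libraries of 1 altitude with the same number were taken as 1 goat. Residual levels of libraries from the same goat had a mean r of 0.0677 over 90 pairs (-0.41 to 0.54), those of different goats of 1 altitude in different tissues -0.0331 over 180 pairs, a value tied to the first because residuals sum to 0 within each group of 3, and those with the same number but different altitudes, in the same tissue, 0.0746 over 18 pairs (in heart 0.353 to 0.513), so this check does not settle the pairing, which rests on the labels.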

Additional observations from a re-analysis of the deposited data

Results flagged for a closer look

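Of 36 groups of 6 libraries, 1 for each member and tissue, 3 had a library far from the other 5, by the share of the group's range that lies between it and its nearest neighbour (Dixon's test). Chance would mark about 1 in 20 groups. No share over all miRNAs is given beside this count, so it is not read as particular to the family. All 3 were conserve-chi-miR-148a-3p in low-altitude replicate 3. In heart it had 799.8 RPM against 185 to 250.4 RPM in the other libraries, a gap of 0.893 of the range. In muscle it had 352 RPM against 63.8 to 107 RPM (0.851), and in kidney 2734 RPM against 364 to 798 RPM (0.817). This goat had the highest level of the entry in 4 of 6 tissues, and the difference over all tissues between the altitudes is given with and without it in the account of the ratios. chi-miR-148a-3p and chi-miR-148b-3p had no such library in these tissues. In these 3 tissues its libraries also stood apart over all miRNAs, with a chi-square per degree of freedom of 3914 and 4021 against the other low-altitude libraries in heart, 6207 and 3492 in kidney and 4483 and 4657 in muscle, where the others had 612, 1636 and 716 between them. Its TMM factor was 1.53 in kidney, against 0.550 and 1.14, and 0.855 in muscle, against 0.531 and 0.542. The part of this in the levels of the entry was not tested.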

How the results depend on the processing

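With 3 goats a group, 1 count table and no raw reads, small altitude differences may go uncalled, population and altitude cannot be told apart, and the split between near-identical entries rests on the authors' counting. The altitude count was 0 of 36 in edgeR with RLE factors, library size only, the exact test, filterByExpr, 1 fit over all libraries, the replicate block and each library left out, 0 of 18 with arms summed, and 4 with DESeq2 and no minimum fold. The tissue count of 13 was 11 to 15 without 1 goat, 14 with goat as replicate block, 14 with RLE factors, 17 with DESeq2, 18 on library size only, 18 with filterByExpr, and 7 with arms summed, where fewer entries were tested. The interaction count was 0 in each alternative run. The goat difference of chi-miR-148a-3p was 0.69 to 0.79 on other scales and pseudocounts and 0.64 to 0.80 without 1 goat.

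Some altitude log2 fold changes, none called, reversed, and the cause was not tested. On library size only, chi-miR-148a-5p in lung was -0.19, chi-miR-148b-3p in kidney -0.085 and in muscle -0.046, chi-miR-148b-5p in spleen 0.046 and conserve-chi-miR-148a-5p in heart 0.042. With the replicate block, chi-miR-148a-5p in lung was -0.026 and chi-miR-148b-3p in lung 0.041. In 1 fit over all libraries, chi-miR-148b-3p was -0.0055 in heart and 0.14 in lung, and chi-miR-148b-5p 0.032 in lung. With DESeq2 and with RLE factors, chi-miR-148b-3p in lung was 0.062 in both and chi-miR-148b-5p in spleen 0.014 in both. With filterByExpr the latter was 0.019, and with arms summed chi-miR-148b in lung was 0.034. Without 1 library, chi-miR-148a-3p in lung ranged from -0.13 to 0.60, chi-miR-148a-5p in lung from -0.11 to 0.20, chi-miR-148b-3p in kidney from -0.12 to 0.52, in lung from -0.21 to 0.25 and in muscle from -0.066 to 0.40, chi-miR-148b-5p in lung from -0.26 to 0.061 and in spleen from -0.13 to 0.045, and conserve-chi-miR-148a-5p in spleen from -0.63 to 0.12.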
